A study of Mus musculus with 28 samples.

Results

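The loci of 5 transcription factors of the B lineage, Pax5, Ebf1, Tcf3, Foxo1 and Ikzf1, were examined for 5-hydroxymethylcytosine (5hmC) and 5-methylcytosine (5mC). Each locus was a fixed window of the mouse genome build mm9, and every peak that overlapped a window by at least 1 bp was a member. The windows were chromosome 4 from 44530001 to 44740000 (Pax5), chromosome 11 from 44410001 to 44840000 (Ebf1), chromosome 10 from 79860001 to 79910000 (Tcf3), chromosome 3 from 52050001 to 52170000 (Foxo1) and chromosome 11 from 11570001 to 11690000 (Ikzf1). They are 210, 430, 50, 120 and 120 kb long in that order, and together held 978 of the 1489550 peaks in the 11 peak lists, 622 of them 5hmC and 356 of them 5mC peaks. No annotation of mm9 was used, so peaks were assigned to windows and not to promoters, exons or introns. By the RefSeq gene order of GRCm38.p6, the neighbouring genes are Melk and Zcchc7 for Pax5, Rnf145 and Clint1 for Ebf1, Uqcr11 and Onecut3 for Tcf3, Maml3 and Cog6 for Foxo1, and 4930512M02Rik and Fignl1 for Ikzf1, and peaks at the edges of a window may belong to them.

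Bone marrow cells labelled LK were profiled, from C57BL/6 mice of 6 to 10 weeks. The mice were wild type (WT), lacked Tet2 (Tet2KO, Tet2-/-), or lacked both Tet1 and Tet2 (DKO). The 5hmC libraries, made by selective chemical labelling and capture (hMe-Seal), numbered 2 per genotype, and the 5mC libraries, made by immunoprecipitation of methylated DNA (MeDIP-seq), numbered 2 for WT, 2 for DKO and 1 for Tet2KO. Whether the libraries of a genotype stem from different animals is not in the labels, and the p-values below therefore describe library-to-library spread, which may be technical. Neither the promoter or Cre behind the deletions nor any pooling of animals is given in the sources used here, and DNA peaks do not allow the cell type to be checked by marker expression.

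TET1 and TET2 are dioxygenases that oxidise 5mC to 5hmC, and both marks occur mostly at CG dinucleotides. In early B lymphopoiesis, IKAROS, the zinc-finger protein encoded by Ikzf1, and the E2A proteins encoded by Tcf3, which bind E-box motifs as basic helix-loop-helix dimers, act already in multipotent and lymphoid progenitors. FOXO1, a forkhead factor restrained by PI3K and AKT signalling, and the E2A proteins activate Ebf1, whose product opens B-lineage chromatin. EBF1 in turn activates Pax5, whose paired-domain protein holds cells in the B lineage and represses genes of other lineages.

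The promoters of the members differ widely in the CG dinucleotides that can carry either mark. RefSeq sequence of GRCm38.p6 was matched for 5 of 5 members and gave 7 promoters of 300 bases, each reaching from 250 bases before to 50 after a transcription start. The motif CG, which reads the same on both strands, was counted, and 94.6% of all 32851 promoters in the table hold it at least 1 time, with a median of 7. The member promoters held 2 to 52. The Pax5 promoter (23 CG), the Tcf3 promoter (25 CG) and both Ikzf1 promoters (52 and 2 CG) are shown 5′ to 3′ because they span that range, and capitals mark each CG. Their build differs from that of the peaks, so no peak was placed on them.
Pax5: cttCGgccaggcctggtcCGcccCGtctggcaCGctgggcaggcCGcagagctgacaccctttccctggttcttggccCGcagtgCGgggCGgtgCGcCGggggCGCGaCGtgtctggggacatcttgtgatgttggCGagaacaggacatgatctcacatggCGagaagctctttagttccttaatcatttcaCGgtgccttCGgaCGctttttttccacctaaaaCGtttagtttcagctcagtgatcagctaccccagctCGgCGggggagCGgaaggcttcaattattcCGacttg
Tcf3: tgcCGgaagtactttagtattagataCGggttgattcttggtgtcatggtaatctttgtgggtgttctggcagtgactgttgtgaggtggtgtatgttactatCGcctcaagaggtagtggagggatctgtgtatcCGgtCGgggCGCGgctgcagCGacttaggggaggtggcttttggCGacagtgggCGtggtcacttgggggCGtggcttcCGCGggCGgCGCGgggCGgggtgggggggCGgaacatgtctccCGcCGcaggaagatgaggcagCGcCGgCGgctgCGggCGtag
Ikzf1, promoter 1: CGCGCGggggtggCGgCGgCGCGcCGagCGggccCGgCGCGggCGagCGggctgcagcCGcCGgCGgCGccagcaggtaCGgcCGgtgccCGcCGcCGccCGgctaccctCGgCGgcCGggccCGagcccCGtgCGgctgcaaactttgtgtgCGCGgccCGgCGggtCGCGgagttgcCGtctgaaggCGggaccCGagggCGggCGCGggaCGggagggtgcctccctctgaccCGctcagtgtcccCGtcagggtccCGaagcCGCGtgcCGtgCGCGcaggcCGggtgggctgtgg
Ikzf1, promoter 2: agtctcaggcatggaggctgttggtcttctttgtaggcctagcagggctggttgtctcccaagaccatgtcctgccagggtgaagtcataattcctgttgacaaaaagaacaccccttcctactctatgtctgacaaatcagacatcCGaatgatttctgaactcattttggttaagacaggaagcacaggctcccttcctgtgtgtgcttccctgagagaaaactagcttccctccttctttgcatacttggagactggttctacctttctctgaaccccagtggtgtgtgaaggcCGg
As many CG as in the CG-rich Ikzf1 promoter were found in 0.575% of all promoters, and as many as in the other Ikzf1 promoter in 85.9%. The Foxo1 promoter held 31 CG and the Ebf1 promoters 9 and 17.

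Coverage by 5hmC differed widely between the 5 loci. Over all 6 libraries, 5hmC peaks covered 25.5% to 40.7% of the Tcf3 window, 27.9% to 33.8% of the Ikzf1 window and 12.03% to 19.6% of the Foxo1 window, against 1.53% to 2.27% of the Ebf1 window and 0.596% to 1.92% of the Pax5 window. The ranges of Tcf3 and Ikzf1 overlapped, as did those of Ebf1 and Pax5, while Foxo1 stood apart from its neighbours in the order on both sides. These are values of separate windows in the same libraries and were not tested against each other. Fewer cells with the mark and less of the mark per cell cannot be told apart in such bulk libraries.

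Set beside all genome tiles of the same length with a peak in at least 2 libraries, the Ikzf1 window had a mean 5hmC coverage of 30.3%, against a tile median of 4.28% (120 kb tiles), and 2.98% of tiles had as much. For Tcf3 the mean was 34.6%, the tile median 5.10% (50 kb tiles), and 3.42% of tiles had as much. For Foxo1 the mean was 16.9%, and 13.8% of tiles had as much. The Ebf1 mean of 2.00% lay under its tile median of 3.71% (430 kb tiles), as did the Pax5 mean of 1.20% under 3.94% (210 kb tiles). Of these tiles, 61.3% had as much 5hmC as Ebf1 and 71.9% as much as Pax5, and both loci lay between the first quartile of their tiles (0.796% and 0.965%) and the median.

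For 5mC the order was another. The peaks covered 11.3% to 13.6% of the Tcf3 window over the 5 libraries and 4.10% to 4.68% of the Pax5 window, followed by 1.79% to 2.34% for Foxo1, 1.14% to 1.79% for Ikzf1 and 0.911% to 1.36% for Ebf1. Tcf3 and Pax5 stood apart from every other window, and the ranges of Foxo1 and Ikzf1 met within rounding, while those of Ikzf1 and Ebf1 overlapped. Among tiles of the same length, 1.41% had as much 5mC as Tcf3 and 12.9% as much as Pax5, while the other 3 loci lay nearer to their tile medians, with 36.2% (Foxo1), 46.2% (Ikzf1) and 45.8% (Ebf1) of tiles at or above them. By its mean, Pax5 had the least 5hmC of the 5 loci but more 5mC than all of them except Tcf3, which had the highest mean of both marks.

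**Figure D1:**
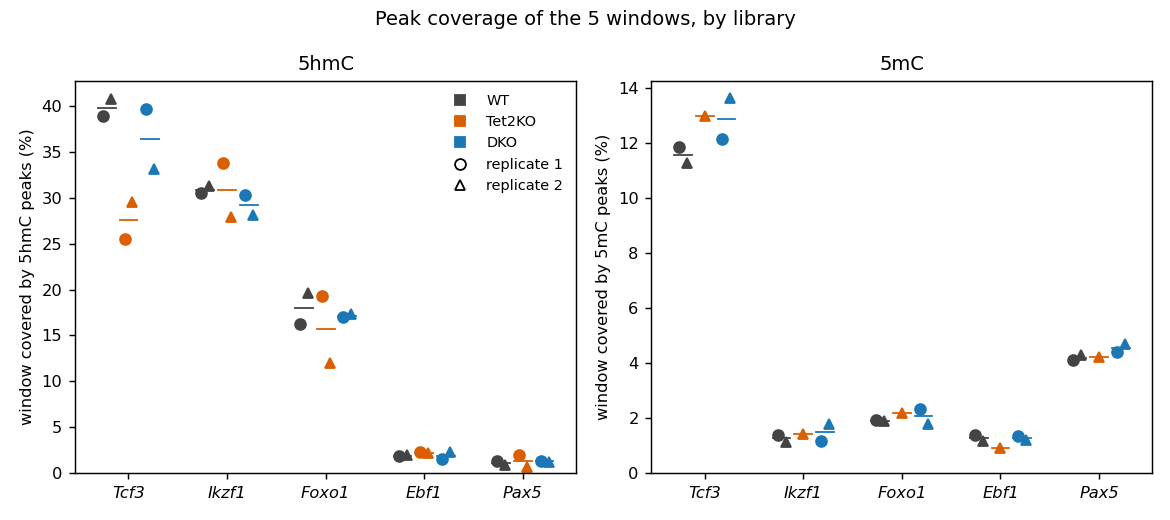
Percent of each window covered by 5hmC peaks (left) and 5mC peaks (right). Each point is a library, coloured by genotype and shaped by replicate number, and short lines are genotype means. The Ebf1 and Pax5 windows stay under 2.3% in 5hmC, Pax5 is second to Tcf3 in 5mC, and both Tet2KO libraries (25.5% and 29.6%) lie under both WT libraries (39.0% and 40.7%) at Tcf3.

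Ikzf1, which is needed from the earliest lymphoid progenitors on, had the largest share of constant 5hmC regions of the 5 loci. WT lists held 43 and 45 peaks, Tet2KO lists 49 and 42, and DKO lists 43 and 44. Merged over the libraries of the assay, these peaks formed 54 regions, and 33 of them (61.1%) had a peak in all 6 libraries, compared with 29.9% of 206417 regions in the genome. Tcf3 came close, with 12 of 22 regions (54.5%). No stretch of the window longer than 8.28 kb was without a 5hmC peak. The highest mean authors' score among these constant regions belonged to chromosome 11 from 11583873 to 11585534, with 878 and 867 (WT), 1253 and 741 (Tet2KO), and 970 and 1011 (DKO). The top peak of the window ranked above 99.1% of the peaks of its own list, or higher, in every library.

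The few 5mC peaks of Ikzf1 lay mostly inside 5hmC. A list held 3 to 5 of them, and all 3 constant 5mC regions (a peak in all 5 libraries) overlapped a constant 5hmC region. In the genome 19.7% of 70562 constant 5mC regions did. The 3 of Ikzf1 were chromosome 11 from 11627724 to 11628142, from 11644498 to 11644948 and from 11668922 to 11669761, the last having a mean authors' score of 702. In WT, 100% of the 5mC length lay under 5hmC peaks, against 29.0% over the whole genome, and 82.3% and 84.7% did in Tet2KO and DKO. The 5hmC coverage of the window was 30.5% and 31.3% in the WT libraries. The Tet2KO share rests on a single 5mC library. With authors' scores of at least 100 the shares were 100%, 96.8% and 98.8% in WT, Tet2KO and DKO. With at least 200 they were 100%, 68.0% and 67.4%, on 1104, 1172 and 1218 bp of 5mC. The 2 marks were measured in separate libraries of many cells, so their presence on the same molecule cannot be read from these lists.

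Tcf3, whose E2A products pair with other basic helix-loop-helix proteins, was dense in both marks. WT lists held 21 and 20 5hmC peaks there, Tet2KO lists 17 each, and DKO lists 21 and 17. For 5mC the WT lists held 12 and 13 peaks and the Tet2KO and DKO lists 14 each. The constant 5mC region on chromosome 10 from 79875229 to 79876238 had the highest mean score, with authors' scores of 1995 and 2406 (WT), 2673 (Tet2KO), and 2448 and 2019 (DKO). No other constant 5mC region of the 5 windows had a higher mean score. Its peaks ranked above 99.7% of their own lists in every library, and a constant 5hmC region from 79875162 to 79876246 enclosed it. By mean score the first constant 5hmC region of Tcf3 was that from 79885166 to 79887848, with authors' scores of 654 and 621 (WT), 232 and 810 (Tet2KO), and 515 and 543 (DKO), so the Tet2KO libraries lay on both sides of all others. Of the 7 constant 5mC regions of Tcf3, 7 met a 5hmC peak of some library and 4 met a constant 5hmC region. In the genome 39.6% and 19.7% of 70562 such regions did. The 5hmC peaks of all libraries together covered 25745 bp of this 50 kb window. The 5mC length under 5hmC peaks was 91.6% in WT, 54.4% in Tet2KO and 75.8% in DKO. The Tet2KO value rests on a single 5mC library and on the smaller 5hmC coverage described below. Among peaks of both marks with an authors' score of at least 100 the shares were 77.9%, 67.1% and 68.5% in the same order, and with at least 200 they were 48.2%, 50.0% and 45.0%.

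At Foxo1, whose product is moved out of the nucleus when AKT is active, WT lists held 20 and 26 5hmC peaks, Tet2KO lists 30 and 21, and DKO lists 23 and 28. Its 41 regions included 10 constant ones (24.4%). The broad constant region on chromosome 3 from 52099943 to 52103420 (3478 bp) had authors' scores of 1067 and 656 (WT), 1486 and 717 (Tet2KO), and 936 and 1012 (DKO), and a constant 5mC region from 52100526 to 52100990 lay within it. The 5mC lists held 7 to 11 peaks. By mean score the first constant 5mC region lay from 52123868 to 52124193, with a mean authors' score of 364, and met no 5hmC peak. Of the 5mC length, 70.8% in WT, 60.6% in Tet2KO and 30.9% in DKO lay under 5hmC peaks. The Tet2KO share rests on a single 5mC library. With authors' scores of at least 100 the shares were 59.6%, 22.3% and 25.9% in the same order. With at least 200 they were 52.174%, 53.9% and 56.2%, on 529, 453 and 642 bp of 5mC. Replicates differed more in Tet2KO than in the other genotypes, with 19.3% and 12.03% of the window covered by 5hmC.

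**Figure D2:**
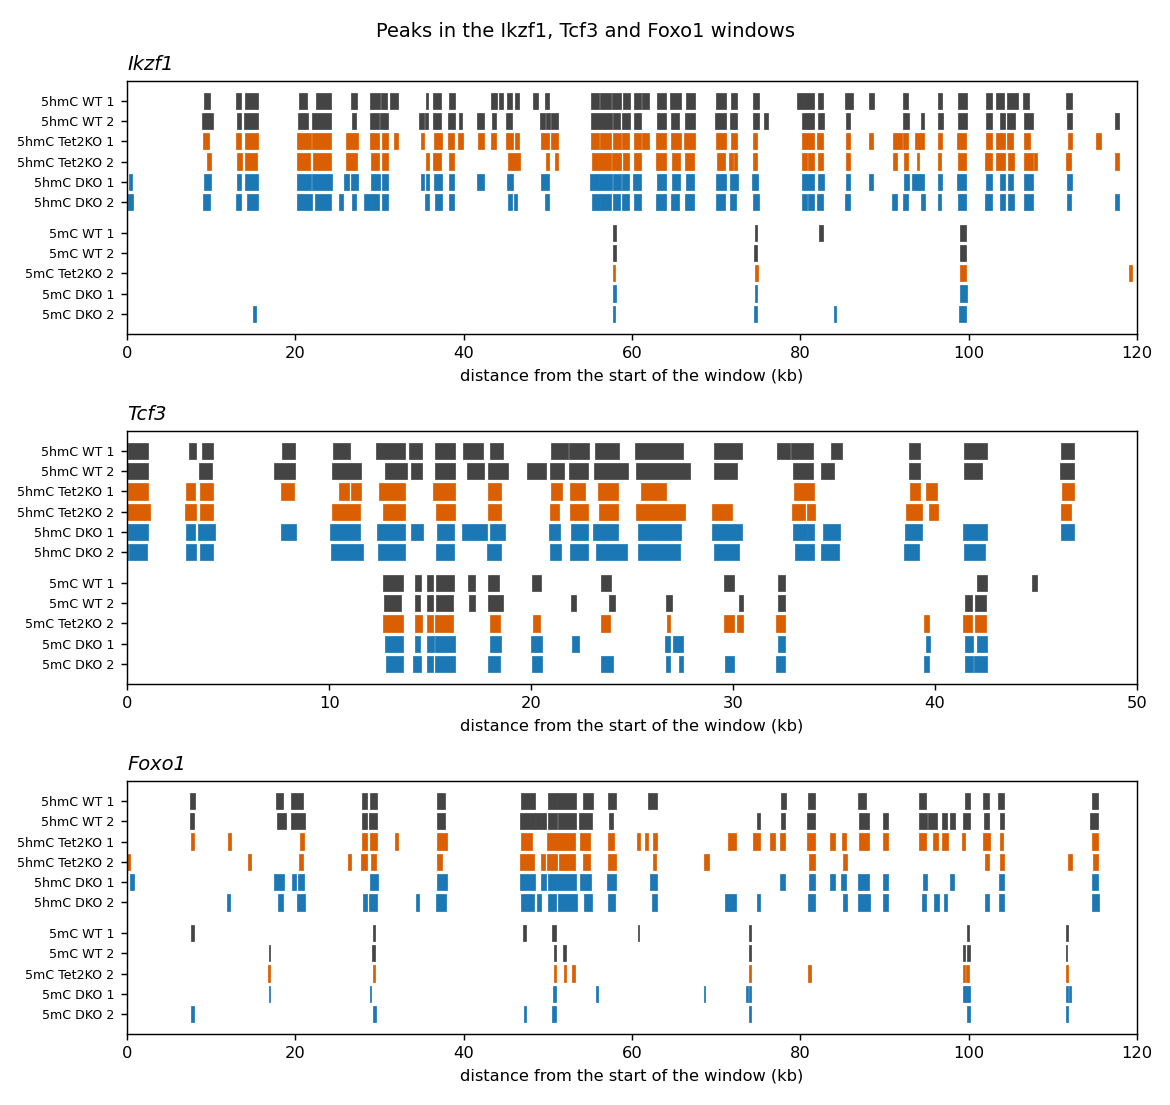
Peaks of the 6 5hmC and 5 5mC libraries in the Ikzf1, Tcf3 and Foxo1 windows, by distance from the start of the window in kb. Bars are peaks, coloured by genotype, with a thin outline that gives narrow peaks a minimum drawn width. In Ikzf1 the 3 constant 5mC regions lie under 5hmC peaks, and in Tcf3 the Tet2KO rows lack peaks that both WT rows hold at 13.9, 34.4 and 41.4 kb.

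Ebf1, the activator of Pax5, showed 5mC and 5hmC on different sides of its window. WT lists held 11 5hmC peaks each, Tet2KO lists 13 and 14, and DKO lists 10 and 15. For 5mC, WT lists held 21 and 20 peaks, the Tet2KO list 14, and DKO lists 23 and 18. A split at the midpoint of the window, 44625000, was chosen after the data had been seen. Before it lay 0 to 4 5hmC peaks and 13 to 17 5mC peaks per library, and after it 9 to 13 5hmC peaks and 1 to 6 5mC peaks, so the ranges did not overlap for either mark. Pax5 leaned the same way on far fewer 5hmC peaks, with 15 to 19 5mC peaks before and 7 to 11 after its midpoint, and 0 to 2 5hmC peaks before and 2 to 4 after it. At Ikzf1 5hmC was spread evenly, with 18 to 24 peaks before and 21 to 25 after the midpoint, and 5mC peaks numbered 1 to 2 and 2 to 3. The 5hmC ranges of Tcf3 did not overlap either, with 10 to 13 before and 5 to 8 after its midpoint. Its 5mC peaks leaned to the same side, with 7 to 8 and 4 to 7. For Foxo1 the ranges overlapped in 5hmC (11 to 14 and 8 to 19) and in 5mC (4 to 5 and 3 to 7).

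All 7 constant 5mC regions of Ebf1 began at 6.43 to 209 kb from the start of the window and all 4 constant 5hmC regions at 225 to 354 kb. The constant 5hmC region with the highest mean score, on chromosome 11 from 44706090 to 44707549, had authors' scores of 226 and 209 (WT), 123 and 178 (Tet2KO), and 192 and 207 (DKO). In both Tet2KO libraries the region from 44710298 to 44711686 scored higher, at 164 and 260. The constant 5mC region with the highest mean score lay at 44554494 to 44554891, with a mean authors' score of 178. None of the 4 constant 5hmC regions met a 5mC peak of any library, compared with 42.9% of 61659 such regions in the genome that did. The 5mC peaks of all libraries together covered 11292 bp of this 430 kb window. Of the 7 constant 5mC regions, 3 met a 5hmC peak of some library, beside 39.6% of 70562 in the genome. A constant 5hmC region was met by 0 of the 7, beside 19.7%. The first 89.5 kb of the window had no 5hmC peak in any library.

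Pax5, the factor of B-lineage commitment, was marked mainly by 5mC. WT lists held 24 and 25 5mC peaks, the Tet2KO list 26, and DKO lists 27 and 28. Of 5hmC peaks, WT lists held 3 each, Tet2KO lists 5 and 2, and DKO lists 4 each. Of 38 merged 5mC regions, 17 were held by all 5 libraries, as were 32.3% of 218122 regions in the genome. The one with the highest mean score, on chromosome 4 from 44541576 to 44542053, had authors' scores of 266 and 394 (WT), 393 (Tet2KO), and 296 and 320 (DKO). The region from 44692153 to 44692620 had nearly the same mean (329 against 334) and was higher in both WT libraries, at 321 and 432. Only 1 of the 17 met a 5hmC peak of any library and 0 met a constant 5hmC region, while in the genome 39.6% and 19.7% of 70562 constant 5mC regions did. The 5hmC peaks of all libraries together covered only 5227 bp of this 210 kb window, so few overlaps were possible.

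Both constant 5hmC regions of Pax5 lay close together, and neither met a 5mC peak of any library. The region on chromosome 4 from 44684027 to 44685440 was covered by 5hmC peaks over 1335 and 648 bp (WT), 1258 and 507 bp (Tet2KO), and 1390 and 1181 bp (DKO). Its authors' scores were 150 and 122 (WT), 206 and 76.4 (Tet2KO), and 271 and 130 (DKO), and the genotypes overlapped. The region from 44687669 to 44688596 was covered over 763 and 649 bp (WT), 924 and 745 bp (Tet2KO), and 670 and 703 bp (DKO). A stretch of 80.5 kb before the first of them had no 5hmC peak in any library.

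**Figure D3:**
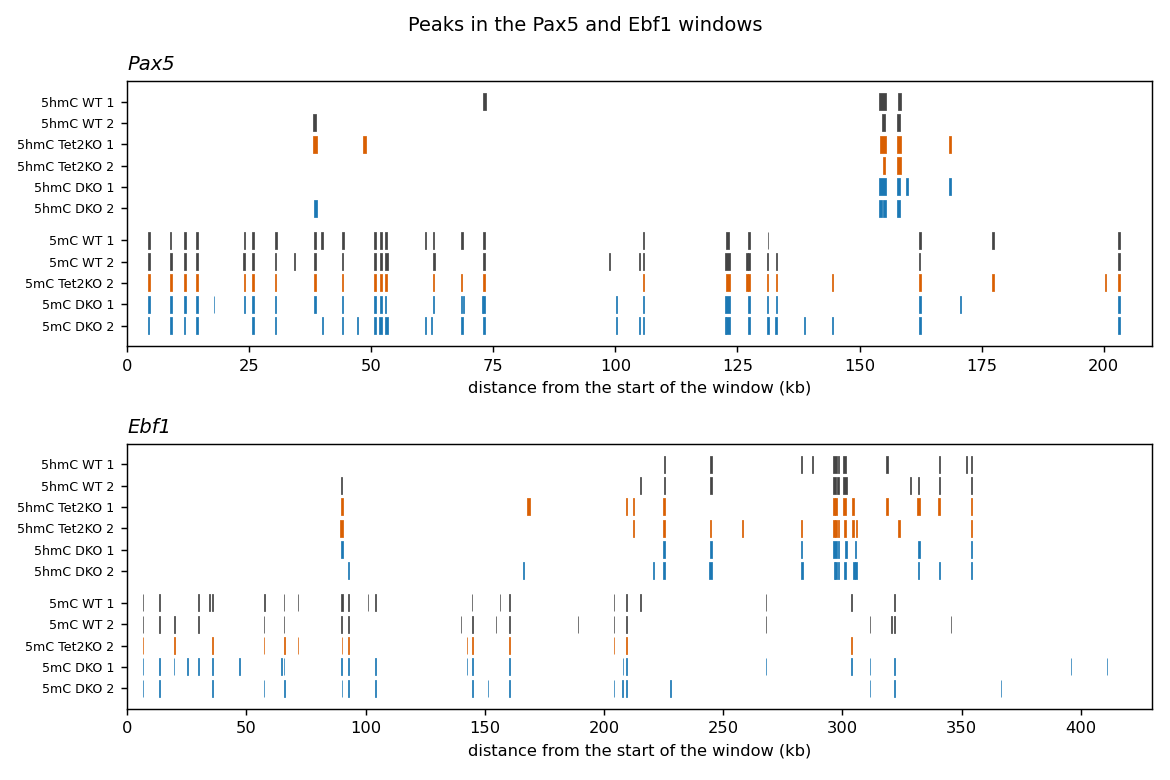
Peaks of the 6 5hmC and 5 5mC libraries in the Pax5 and Ebf1 windows, by distance from the start of the window in kb. Bars are peaks, coloured by genotype, again with a minimum drawn width. In Pax5 the 5hmC peaks shared by all libraries lie at 154 and 158 kb, with many 5mC peaks elsewhere. In Ebf1 most 5mC peaks lie on the left side and most 5hmC peaks on the right.

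The genotypes were compared to ask whether loss of Tet2, or of Tet1 and Tet2 together, was accompanied by other 5hmC at these loci. At Tcf3, Tet2KO had the least 5hmC over all peaks, though not among those with an authors' score of at least 200, which covered 17.2% in WT, 16.4% in Tet2KO and 15.4% in DKO. Coverage was 39.0% and 40.7% in WT (mean 39.9% ± 1.25, SD, n = 2), 25.5% and 29.6% in Tet2KO (27.5% ± 2.90, SD, n = 2) and 39.7% and 33.2% in DKO (36.5% ± 4.66, SD, n = 2). Both Tet2KO libraries lay under every WT and DKO library, and DKO replicate 1 lay within the WT range. In limma fits over 13481 rows, made of all 100 kb bins with peaks in at least 2 libraries and the 5 windows, the difference of Tet2KO from WT was -12.3 percentage points (-0.13 ± 0.030 SE on the arcsine square-root scale) with an unadjusted p of 0.00306 and an adjusted p of 0.298. The difference of DKO from Tet2KO was 8.90 points (limma, adjusted p = 0.533), and -1.07 points among peaks scoring at least 200. That of DKO from WT was -3.41 points (limma, adjusted p = 0.779), -6.70 points without DKO replicate 1 and -0.109 points without DKO replicate 2, and 2.98 points among peaks scoring at least 100. These comparisons share libraries. Over both knockouts against WT the exact two-sided permutation p was 0.267, and with 15 splits none under 0.0667 was possible, so this test could not pass 0.05.

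None of the 5 windows passed an adjusted p of 0.05 in any of the 3 contrasts, and none of the other rows did (0% called in each fit). At an unadjusted p under 0.05, limma gave 1 window in Tet2KO against WT (12.9% of all rows), 0 in DKO against WT (8.24%) and 1 in DKO against Tet2KO (8.46%), the window being Tcf3 in each case.

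At the other 4 loci no genotype difference passed either. Ikzf1 coverage was 30.9% ± 0.507 in WT, 30.9% ± 4.21 in Tet2KO and 29.2% ± 1.53 in DKO (SD, n = 2 each). Foxo1 coverage was 17.9% ± 2.40, 15.7% ± 5.15 and 17.2% ± 0.219 (SD, n = 2 each), in the same order. For Ebf1 it was 1.90% ± 0.00428, 2.21% ± 0.0955 and 1.88% ± 0.504 (SD, n = 2 each), and for Pax5 1.07% ± 0.295, 1.26% ± 0.939 and 1.26% ± 0.131 (SD, n = 2 each). At Ebf1 both Tet2KO libraries (2.27% and 2.14%) lay above both WT libraries (1.90% and 1.90%), with limma adjusted p = 0.842. As a share of the WT mean, that difference was 16.3%, and 28.3% after scaling to each library's covered length. For Pax5, Tet2KO and DKO both had 17.3% more than WT in the mean, against the same WT libraries, with limma adjusted p = 0.967 and 0.955. In Foxo1, Ikzf1 and Pax5 the Tet2KO libraries lay on both sides of a WT library or of both.

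The Tet2KO lists as a whole also covered less of the genome, the same direction as at Tcf3. Between replicates of WT and of Tet2KO, the list with less covered length had more Tcf3 coverage, while in DKO it had less. The Tet2KO lists held 137013 and 140491 5hmC peaks, more than the WT lists (128471 and 135265). DKO lists held 130077 and 143960. Median peak widths were 633 and 598 bp in Tet2KO, against 728 and 681 bp in WT and 705 and 623 bp in DKO. The mean covered length of the Tet2KO lists differed from WT by -9.40%, while coverage of the Tcf3 window differed by -30.9%. Scaled to each library's own covered length, the Tcf3 difference was -23.6%. The part of overall covered length in the Tcf3 difference was not tested, as the scaling and the replicate pairs only describe the values. Among peaks with an authors' score of at least 200, the Tcf3 difference of Tet2KO from WT was -0.813 points.

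Within Tcf3, 3 of 22 regions were held by both WT and neither Tet2KO library, where 3.27% of all regions were so lost. They were chromosome 10 from 79873949 to 79874639, from 79894355 to 79895390 and from 79901412 to 79902597. The last and widest was covered by 5hmC peaks over 1168 and 879 bp (WT), 0 and 0 bp (Tet2KO), and 1186 and 1071 bp (DKO), and 1116 of its 1186 bp lay on 5mC peaks of some library. The region from 79894355 was covered over 557 and 640 bp in WT and 828 and 865 bp in DKO. Both regions were held by both DKO libraries, while that from 79873949 was covered over 571 bp in DKO replicate 1 and 0 bp in DKO replicate 2. All 3 had authors' scores in WT of 51.3 to 112, near the lowest score of 50 in any list, and with a minimum score of 100 no region of the 5 windows was lost in Tet2KO against WT.

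Of the regions present throughout, the one from 79876603 to 79878845 was covered over 1617 and 1837 bp (WT), 625 and 661 bp (Tet2KO), and 1946 and 714 bp (DKO). Both Tet2KO libraries and DKO replicate 2 were low there, and DKO replicate 1 was above both WT libraries. Counting all constant regions of the 5 windows, a comparison added after the data had been seen, 19 of 61 were covered less in both Tet2KO than in both WT libraries, beside 31.7% in the genome, and 5 were covered more, beside 8.63%. For Tcf3 alone the counts were 4 and 0 of 12. In DKO against WT, 17 were covered less (22.5% in the genome) and 8 more (14.8%), and in DKO against Tet2KO, 7 less (8.98%) and 16 more (25.5%).

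**Figure D4:**
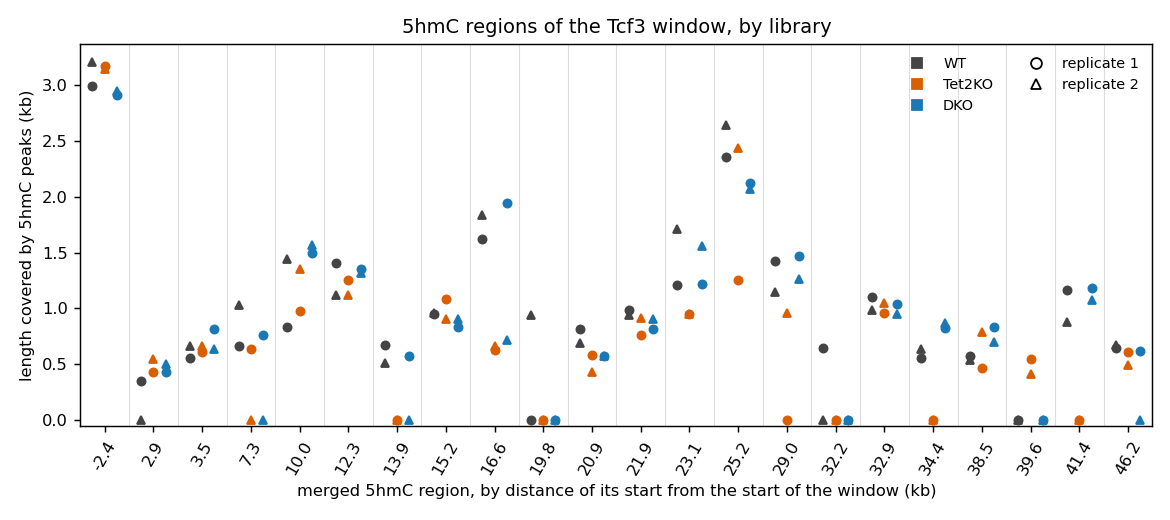
Length covered by 5hmC peaks in kb (vertical axis) in each of the 22 merged 5hmC regions of the Tcf3 window, ordered by the distance of their start from the start of the window. Points are libraries, coloured by genotype and shaped by replicate number. The regions at 13.9, 34.4 and 41.4 kb are at 0 in both Tet2KO libraries and above 0 in both WT libraries.

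Over the 5 windows, 4 of 149 5hmC regions were lost and 5 gained in Tet2KO against WT, beside 3.27% and 3.42% of all regions. Besides the 3 in Tcf3, the lost region was on chromosome 3 from 52067496 to 52068821 in Foxo1 (1326 bp), which both DKO libraries held. The widest gained region, in Ebf1 on chromosome 11 from 44713900 to 44715042, was held by both Tet2KO libraries and DKO replicate 2. The other gained regions were 1 more in Ebf1 and 1 each in Tcf3 (79899571 to 79900142), Foxo1 (52134813 to 52135509) and Ikzf1 (11660955 to 11661465). In DKO against WT, 3 were lost (3.3% of all regions) and 3 gained (4.18%). The lost ones were 2 in Foxo1, the wider from 52149231 to 52150164, and 1 in Ikzf1 from 11613258 to 11613899. The gained ones were in Ebf1 from 44715128 to 44716114, in Foxo1 from 52134813 to 52135509 and in Ikzf1 from 11570099 to 11570652. In DKO against Tet2KO, 3 were lost (2.21%) and 4 gained (2.81%), the widest being an Ikzf1 region from 11620355 to 11621219 that was lost and the Foxo1 region from 52067496 that was gained. The Tcf3 region from 79899571 and an Ebf1 region from 44622123 to 44622725 were also lost, and the Tcf3 regions from 79894355 and 79901412 and the Ikzf1 region from 11570099 were gained. The shares in the windows, 2.01% to 3.36%, were near those of the genome or under them. No 5hmC region of Pax5 was lost or gained in any contrast.

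Bins of 10 kb gave coverage on a finer scale. In Tet2KO against WT, 6 of 46 tested bins in the windows had an unadjusted p under 0.05 (limma, 10.5% of all bins). After adjustment 0 passed (0%). The 6 were the Tcf3 bins from 79870001, 79880001 and 79900001, the Ikzf1 bins from 11590001 and 11640001, and a Foxo1 bin. Of these, only the Ikzf1 bin from 11590001 had more 5hmC in Tet2KO. The lowest p among bins with less 5hmC belonged to Foxo1, chromosome 3 from 52060001 to 52070000. WT libraries had 13.8% and 15.5% of it covered, Tet2KO libraries 4.68% and 3.52%, and DKO libraries 14.8% and 10.9% (limma, adjusted p = 0.218 for Tet2KO against WT and 0.372 for DKO against Tet2KO). Both Tet2KO libraries were low there.

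An Ikzf1 bin had the opposite difference. Chromosome 11 from 11590001 to 11600000 was covered to 45.8% and 48.8% in WT. Tet2KO libraries reached 62.0% and 58.3%, and DKO libraries 64.0% and 62.3%. The 4 knockout libraries lay above both WT libraries, which serve as the reference for both knockouts (limma, adjusted p = 0.305 for Tet2KO and 0.236 for DKO). It was the 1 bin of 46 with an unadjusted p under 0.05 in DKO against WT (9.61% of all bins; 0% after adjustment). Next to it, the bin from 11600001 to 11610000 had the lowest p among those with less 5hmC in DKO, at 36.3% and 41.2% in WT and 29.9% and 26.4% in DKO (limma, adjusted p = 0.682). In DKO against Tet2KO, 3 of 46 bins had an unadjusted p under 0.05 (7.33% of all bins; 0% after adjustment), among them an Ebf1 bin from 44620001 to 44630000 whose coverage was 6.03% and 3.99% in the Tet2KO libraries, 0 in both DKO libraries, and 0 (replicate 1) and 4.71% (replicate 2) in WT; limma gave an adjusted p of 0.658.

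The 5mC of the loci was compared between DKO and WT only, as Tet2KO has a single library. At Tcf3 it covered 11.8% and 11.3% in WT (11.5% ± 0.402, SD, n = 2) and 12.1% and 13.6% in DKO (12.9% ± 1.04, SD, n = 2), with 13.0% in the Tet2KO library. At Pax5 it covered 4.10% and 4.27% in WT (4.19% ± 0.122, SD, n = 2) and 4.40% and 4.68% in DKO (4.54% ± 0.197, SD, n = 2), with 4.20% in Tet2KO. Both DKO libraries lay above both WT libraries at these 2 loci, by 1.33 and 0.355 points in the mean, and neither difference passed (limma over 20408 rows, adjusted p = 0.943 and 0.954). Without DKO replicate 2 they were 0.598 points (Tcf3) and 0.215 points (Pax5), and without DKO replicate 1 they were 2.06 and 0.494 points. Among peaks scoring at least 200 both turned, to -0.059 and -0.287 points, and Pax5 was at -0.301 points with a minimum score of 100. At Ebf1, Foxo1 and Ikzf1 the DKO libraries overlapped the WT range or lay on both sides of it. No window passed (0% of rows called), 0 had an unadjusted p under 0.05 (4.61% of all rows), and 0 of 51 bins of 10 kb passed (0%), with 2 at an unadjusted p under 0.05 (6.8% of all bins).

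Those 2 bins were both in Pax5 and differed in opposite directions. Chromosome 4 from 44560001 to 44570000 had 9.53% and 9.10% covered by 5mC in WT, 6.50% and 4.40% in DKO and 6.05% in the Tet2KO library (limma, adjusted p = 0.672 for DKO against WT). Chromosome 4 from 44660001 to 44670000 had 1.73% and 3.96% in WT, 5.92% and 10.4% in DKO and 6.11% in the Tet2KO library (limma, adjusted p = 0.728). Of 120 merged 5mC regions, 1 was lost in DKO (2.37% of all regions), in Tcf3 on chromosome 10 from 79876899 to 79877240, inside the 5hmC region from 79876603 described above. The 4 gained regions (2.53% of all regions) were 2 in Tcf3, the wider from 79899464 to 79899768, and 1 each in Ebf1, from 44617691 to 44618066, and Pax5, from 44630040 to 44630312. Leaving out any WT or DKO library raised these counts to between 5 and 11 lost and between 8 and 19 gained, as a region then needs to be held or lacked by 1 library fewer.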

How the data were processed

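Peak lists of 6 5hmC and 5 5mC libraries were used. The authors deposited 1 list per library, with no header; positions and a score per peak are given, and the deposited score looks like MACS output (-10 log10 of a p-value), the lowest being 50. Per the submitters' processing notes, the build was mm9 and the tools included MACS 1.4.2 and Bowtie 0.12.9, whose roles are not stated there. Whether a control library was used or duplicates were removed is not given in the sources used here. Read depth is unknown and can change the number and width of peaks; no interval on counts was computed. The 17 RNA-seq samples were not analysed here.

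Starts were read as 0-based and are printed 1-based. Groups and replicate numbers came from titles; the single 5mC Tet2KO library is number 2 by its title. Peaks of an assay were merged into regions when sharing 1 bp or more. A lost region had a peak in both libraries of the reference genotype and in neither of the other, a gained region the opposite; a constant region was held by all libraries of the assay. The covered fraction of the 5 windows and of 100 kb bins (those holding peaks in 2 or more libraries) was arcsine square-root transformed and modelled with limma 3.58.1 in R 4.3.3 (trend in the prior variance, all libraries of an assay in 1 fit, no block, Benjamini-Hochberg adjustment over all rows, calls under 0.05), and 10 kb bins likewise. Python 3.11.15 was used for all else.

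The windows, gene lists and tests were chosen with earlier results of these data known. Named were all 5 loci, the highest-scoring constant region of each mark in each window, the widest lost and gained region per window and contrast, and, per contrast, the 10 kb bin with the smallest unadjusted p in each direction; the midpoint split, the constant-region widths and further regions were chosen after their values were seen. A planned list of other B-lineage genes was not analysed here, as no annotation of mm9 was used. Alternatives were a minimum score of 100 or 200, an equal number of top peaks per list (128471 for 5hmC and 120243 for 5mC), wider windows, other bin sizes, a minimum mean coverage, no transformation, a replicate block, a stricter overlap, and each library left out.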

Additional observations from a re-analysis of the deposited data

How the results depend on the processing

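No window and no 10 kb bin in the windows passed in any of the 102 alternatives run for those counts (smallest adjusted p of limma 0.0669, for Tcf3 in Tet2KO against WT beside bins of 1 Mb). Elsewhere in the genome some alternatives did call bins: with a minimum score of 200, 3.44%, 4.30% and 2.37% of 22455 10 kb bins passed in Tet2KO against WT, DKO against WT and DKO against Tet2KO, where 18 such bins lay in the windows. At most 3 bins passed with bins of 1 Mb, a minimum mean coverage or Tet2KO replicate 1 left out. The Tcf3 difference of Tet2KO from WT kept its sign in all 14 alternatives, from -14.4 to -0.813 percentage points, the latter with a minimum score of 200, and -5.34 with a minimum of 100, so it was smaller among high-scoring peaks. Same-numbered libraries were not found to deviate together (correlations of -0.0562 to 0.0412 over 100 kb bins), and with the replicate block the Tcf3 adjusted p was 0.336 and 0 windows passed, as without it.

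Of 275 alternative values for the 20 window differences, 30 had the opposite sign on the scale of the fit, and none of the differences had passed. In Tet2KO against WT, 5hmC differed by -0.33 points at Ebf1 with a score of at least 200, and by 3.48 and 1.66 points at Ikzf1 with scores of at least 100 and 200. In DKO against WT, with a score of at least 100, it differed by 0.365 points at Ebf1, 2.98 at Tcf3 and 1.24 at Ikzf1, and with at least 200 by 0.85 at Ikzf1. In DKO against Tet2KO it differed by -1.07 points at Tcf3 with at least 200. For 5mC in DKO against WT, Pax5 differed by -0.301 and -0.287 points with at least 100 and 200, Tcf3 by -0.059 with at least 200, Ebf1 by -0.0151 with equal numbers of peaks and -0.0362 in widened windows, and Foxo1 by -0.0242 with equal numbers. Pax5 in DKO against Tet2KO, at 0.000476 points, was -0.0124 points with equal numbers and -0.0921 without DKO replicate 1, with the fitted sign unchanged. The cause was not tested.

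With a library left out, the 5hmC differences of Tet2KO from WT ranged from -0.479 to 0.85 points at Pax5, -5.91 to 1.37 at Foxo1 and -3.01 to 2.95 at Ikzf1. Those of DKO from WT ranged from -0.0226 to 0.395 at Pax5, -0.373 to 0.34 at Ebf1 and -2.48 to 0.911 at Foxo1. Those of DKO from Tet2KO ranged from -0.664 to 0.665 at Pax5, -0.681 to 0.031 at Ebf1, -2.15 to 5.13 at Foxo1 and -4.61 to 1.35 at Ikzf1. For 5mC they ranged from -0.108 to 0.11 at Ebf1, -0.102 to 0.444 at Foxo1 and -0.0846 to 0.536 at Ikzf1.

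Counts of lost and gained regions in the windows are small and moved with the score and the number of peaks. In Tet2KO against WT, 0 were lost at a score of at least 100, and 1 was gained at 200 and 3 with equal numbers. In DKO against WT, 1 was lost and 6 gained at 100, 0 gained at 200 and 6 in widened windows, and 2 were gained with equal numbers. In DKO against Tet2KO, 0 were lost and 0 gained at 200, and 1 was lost with equal numbers. For 5mC, 0 were lost at 200 and with equal numbers, and 0 and 1 were gained. Leaving out any library of a contrast raised the counts by construction: to 8 to 12 lost and 8 to 18 gained in Tet2KO against WT, 6 to 12 and 6 to 12 in DKO against WT, 6 to 19 and 8 to 10 in DKO against Tet2KO, and 5 to 11 and 8 to 19 for 5mC. Depth is unknown, so a missing peak shows only that signal did not pass the caller's threshold.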
